A study of Mus musculus with 12 samples.

Results

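The acyl-CoA thioesterases described here are 8 genes, *Acot2*, *Acot3*, *Acot4*, *Acot7*, *Acot8*, *Acot9*, *Acot11* and *Acot13*, measured in inguinal white adipose tissue (WAT, the subcutaneous fat pad of the groin) of Huntington's disease mice. They were found by gene symbol, and the set was chosen by its genotype differences in the signals of these same arrays. A value was read only from a probe set that carried a single symbol. Under that rule 7 of the 8 genes had a value, from 8 of the 41345 probe sets of the array, since *Acot4* had 2. *Acot8* had no value because its probe set also carries the symbol of another gene, and 1 further probe set of *Acot11* was left out for the same reason. The 6 R6/2 mice carried a transgene with exon 1 of the human huntingtin gene and an expanded CAG repeat, and the 6 wild type (WT) mice were littermates without it. All were males of 12 weeks on a shared C57BL/6 background, and each mouse had 1 array. The R6/2 line expresses a fragment of human huntingtin in most tissues, so the fat pad was not the only organ to carry it. The signals are RMA values on the log2 scale. They compare mice for 1 probe set and do not rank the genes by abundance.

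Acyl-CoA thioesterases split an acyl-CoA into a free fatty acid and coenzyme A. Acyl-CoA synthetases catalyse the opposite step, so that together the enzymes set how much of a cell's fatty acid is held in the activated form that oxidation and lipid synthesis use. The family has members for most compartments of the cell: *Acot2* works in the mitochondrial matrix, *Acot3*, *Acot4* and *Acot8* in peroxisomes, *Acot7* in the cytosol, *Acot9* in mitochondria, and *Acot13* (Them2) largely at mitochondria. *Acot11*, known also as Them1 and as the brown fat inducible thioesterase, is induced by cold in mouse brown fat. Several of the genes are known targets of PPAR-alpha, the nuclear receptor that responds to fatty acids. In mouse they include the set of closely related genes on chromosome 12, which RefSeq lists in the order *Acot2*, *Acot1*, *Acot4*, *Acot3*, *Acot5* and *Acot6*. *Acot1*, the cytosolic near copy of *Acot2*, was not among the 8 and is given beside them. *Acot7* and *Acot11* lie on chromosome 4, *Acot8* on 2, *Acot9* on X and *Acot13* on 13. Near-identical copies can share probes, so signals of *Acot1* and *Acot2*, of *Acot3*, *Acot4* and *Acot5*, and of *Acot9* and *Acot10* may mix. RefSeq also places a long non-coding RNA, *Gm40474*, between *Acot1* and *Acot4*.

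Promoters of the 3 described genes of this cluster are shown because the genes are neighbours, varied together between mice, and are known to respond to one receptor. PPAR-alpha binds, with its partner RXR, to a direct repeat of AGGTCA with 1 base between the copies. The windows of 300 bases (250 before the transcript start and 50 after it) come from RefSeq, build GRCm38.p6, on the plus strand, 5′ to 3′. Capitals mark the best match to this repeat (AGGTCA, any base, AGGTCA) with at most 2 mismatches or, where there was none, an exact AGGTCA, on either strand. The motif was chosen after the values had been seen.
Acot4, chr12:84038129-84038428: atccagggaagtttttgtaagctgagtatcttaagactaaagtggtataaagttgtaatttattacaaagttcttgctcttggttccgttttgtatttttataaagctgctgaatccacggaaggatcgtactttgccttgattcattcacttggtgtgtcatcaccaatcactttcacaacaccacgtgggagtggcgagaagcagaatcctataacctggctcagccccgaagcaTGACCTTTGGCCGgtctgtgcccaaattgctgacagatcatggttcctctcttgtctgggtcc
Acot3, chr12:84051894-84052193: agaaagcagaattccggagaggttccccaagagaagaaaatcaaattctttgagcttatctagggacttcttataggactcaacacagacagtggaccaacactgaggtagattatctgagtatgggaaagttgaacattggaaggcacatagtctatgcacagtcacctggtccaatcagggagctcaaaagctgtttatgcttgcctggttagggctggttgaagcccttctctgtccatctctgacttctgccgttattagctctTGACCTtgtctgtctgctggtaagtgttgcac
Acot2, chr12:83987611-83987910: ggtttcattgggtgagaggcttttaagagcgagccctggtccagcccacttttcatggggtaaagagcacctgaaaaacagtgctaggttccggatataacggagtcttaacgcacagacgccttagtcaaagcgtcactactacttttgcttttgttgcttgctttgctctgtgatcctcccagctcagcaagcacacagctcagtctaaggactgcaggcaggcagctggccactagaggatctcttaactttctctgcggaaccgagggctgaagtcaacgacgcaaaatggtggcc
The *Acot4* window held TGACCTTTGGCCG, a match with 2 mismatches on the minus strand that begins 13 bases before the transcript start. Such a match was present in 1268 of the 32851 promoters of this length in the table (3.86%). The *Acot3* window held a single AGGTCA, read on the minus strand as TGACCT, which 5340 of the promoters (16.3%) also contain, and the single copy inside the longer *Acot4* match counts among them. Neither form was in the *Acot2* window, nor in those of *Acot7*, *Acot8*, *Acot9* and *Acot11*. Of the 7 described genes with a window, 1 therefore held the longer motif and 2 held AGGTCA. Other family members were scanned too. The windows of *Acot1* and *Acot10* held neither form. That of *Acot5* held AGGTCA and that of *Acot12* a longer match with 1 mismatch, while the signals of both genes were too low to be used here. The forms were thus also present in family members with little signal, and absent from *Acot1* of the same cluster. A match describes letters only and does not show that a factor binds there.

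The arrays were alike in overall level, with medians between 5.75 and 5.87. A probe set was used where the mean of at least 1 genotype exceeded that genotype's median over probe sets without a symbol, 5.44 in R6/2 and 5.45 in WT mice. This limit left 14550 genes and all 7 thioesterases with a value. Across those genes limma found 0 higher and 0 lower in R6/2 mice at an adjusted p below 0.05, while 368 were higher and 482 lower at an unadjusted p below 0.05. Pads differed in the markers of other cells. The mean of 15 lymphocyte genes lay at 5.36 to 5.67 in R6/2 mice 3 and 4 and WT mouse 4, against 7.67 to 9.96 in the other 9 mice. The adipocyte marker mean was 11.1 ± 0.28 in R6/2 and 11.3 ± 0.33 in WT mice (SD, n = 6 each), over 14 of 15 markers listed. In RNA from whole pads, fewer cells of a type cannot be told apart from less RNA per cell.

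All 7 measured thioesterases had a higher mean signal in R6/2 mice, by 0.05 to 0.74 on the log2 scale with a median of 0.49. Over all genes 54.2% had a higher mean in R6/2 mice and the median difference was 0.01. An unadjusted p below 0.05 in the direction of higher R6/2 signal was met by 3 of the 7 (*Acot2*, *Acot3* and *Acot4*), against 2.53% of all genes, and an adjusted p below 0.05 by none of the 7, against 0.00% of all genes. Over the 27 alternatives the unadjusted call was lost in 6 for *Acot3*, 2 for *Acot2* and 1 for *Acot4*, and *Acot11* and *Acot13* met it in 4 and 3. At least 4 of the 6 R6/2 mice lay above every WT mouse for 4 of the 7 (*Acot2*, *Acot3*, *Acot4* and *Acot13*), against 3.39% of genes, and at least 5 of 6 for *Acot2* and *Acot4*, against 1.04%. The genes were picked knowing this contrast, so the counts describe them and nothing is read from their excess over the background. The counts for *Acot4* use the median of its 2 probe sets, 1 of which passed the level limit only through R6/2 signals. In the probe set that passed in both genotypes, 4 of 6 R6/2 values exceeded the highest WT value, and the difference was 0.26. By the merged values, the 5 genes with a difference above 0.3 are a mitochondrial enzyme, 2 peroxisomal enzymes, the brown fat enzyme and *Acot13*. *Acot7* and *Acot9* differed by 0.06 and 0.05.

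*Acot2*, the mitochondrial matrix enzyme for long-chain acyl-CoA, had a lowest, median and highest signal of 9.74, 10.33 and 10.83 in R6/2 mice, against 9.43, 9.69 and 10.12 in WT mice. All R6/2 mice except mouse 5 lay above the highest WT mouse, so the groups overlapped through that 1 animal. The means were 10.33 ± 0.39 in R6/2 and 9.75 ± 0.25 in WT mice (SD, n = 6 each), a difference of 0.58 with a standard error (SE) of 0.18, or 1.49 times.

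*Acot4*, the peroxisomal enzyme that in mice prefers succinyl-CoA, was read by 2 probe sets that disagreed in size. The first gave 5.89, 6.33 and 7.74 (lowest, median, highest) in R6/2 mice, against 5.07, 5.43 and 5.73 in WT mice. Every R6/2 mouse exceeded every WT mouse in it. By merged gene values 0.199% of all genes had that pattern, and *Acot4* did not. The means of the first probe set were 6.50 ± 0.67 and 5.40 ± 0.28 in R6/2 and WT mice (SD, n = 6 each). The WT mean is below the level limit and only 2 of 6 WT mice were above it, so that in WT pads this signal was close to background. Set against the limit itself, the R6/2 mean was at least 2.07 times higher. The second probe set gave 6.19, 6.43 and 6.94 in R6/2 mice, against 6.03, 6.26 and 6.36 in WT mice, with 4 of 6 R6/2 mice above all WT mice and a difference of 0.26 (SE 0.12). Between mice of one genotype the probe sets moved together (Pearson's r = 0.763 over 12 mice, a description). The gene's value, the median of both in each array, was 6.49 ± 0.46 in R6/2 and 5.82 ± 0.15 in WT mice, a difference of 0.68 (SE 0.18), and with the brighter probe set alone that difference was 0.26.

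*Acot3*, a peroxisomal long-chain enzyme, gave 5.49, 5.85 and 6.82 in R6/2 mice, against 5.38, 5.45 and 5.69 in WT mice. Mouse 3 of the R6/2 group stood highest, 4 of the 6 lay above all WT mice, and the remaining ones fell inside the WT range. The means were 5.98 ± 0.49 and 5.49 ± 0.12 in R6/2 and WT mice (SD, n = 6 each; difference 0.49, SE 0.19), and the WT mean was just above the level limit. Without R6/2 mouse 3 the difference was 0.32. *Acot1* in the same cluster had 5.21 to 7.42 in R6/2 mice and 4.73 to 5.29 in WT mice. None of the WT mice and 5 of the 6 R6/2 mice exceeded the limit, and the R6/2 mean of 5.90 was at least 1.36 times that limit on the linear scale. *Acot6*, a peroxisomal member at the end of the cluster, differed by -0.04 (SE 0.12), and *Acot5* was below the limit in both genotypes.

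*Acot11*, the brown fat inducible enzyme, varied widely between mice. Its signals were 6.56, 7.64 and 8.58 in R6/2 mice (lowest, median, highest), against 6.27, 6.87 and 7.88 in WT mice. Mice 1, 3 and 6 of the R6/2 group were above all WT mice, mouse 4 was below 4 of the WT mice, and the groups overlapped over much of their range. The means were 7.65 ± 0.79 and 6.90 ± 0.59 in R6/2 and WT mice (SD, n = 6 each), a difference of 0.74 with an SE of 0.36, or 1.68 times. Among the merged values of the described thioesterases it had the largest SE.

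*Acot13*, whose product associates with mitochondria and binds phosphatidylcholine transfer protein, gave 8.51, 8.83 and 9.52 in R6/2 mice, against 8.13, 8.61 and 8.78 in WT mice. The upper 4 R6/2 mice exceeded all WT mice and the remaining ones lay among the WT values. The difference was 0.34 (SE 0.17), and 0.22 without R6/2 mouse 3. *Acot7*, a cytosolic enzyme abundant in brain, ranged from 6.59 to 7.26 in R6/2 mice and 6.65 to 7.07 in WT mice, with a difference of 0.06 (SE 0.12). *Acot9*, a mitochondrial enzyme, ranged from 6.79 to 7.37 in R6/2 mice and 6.61 to 7.17 in WT mice, with a difference of 0.05 (SE 0.13). For both genes the 2 genotypes covered nearly the same interval.

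**Figure D1:**
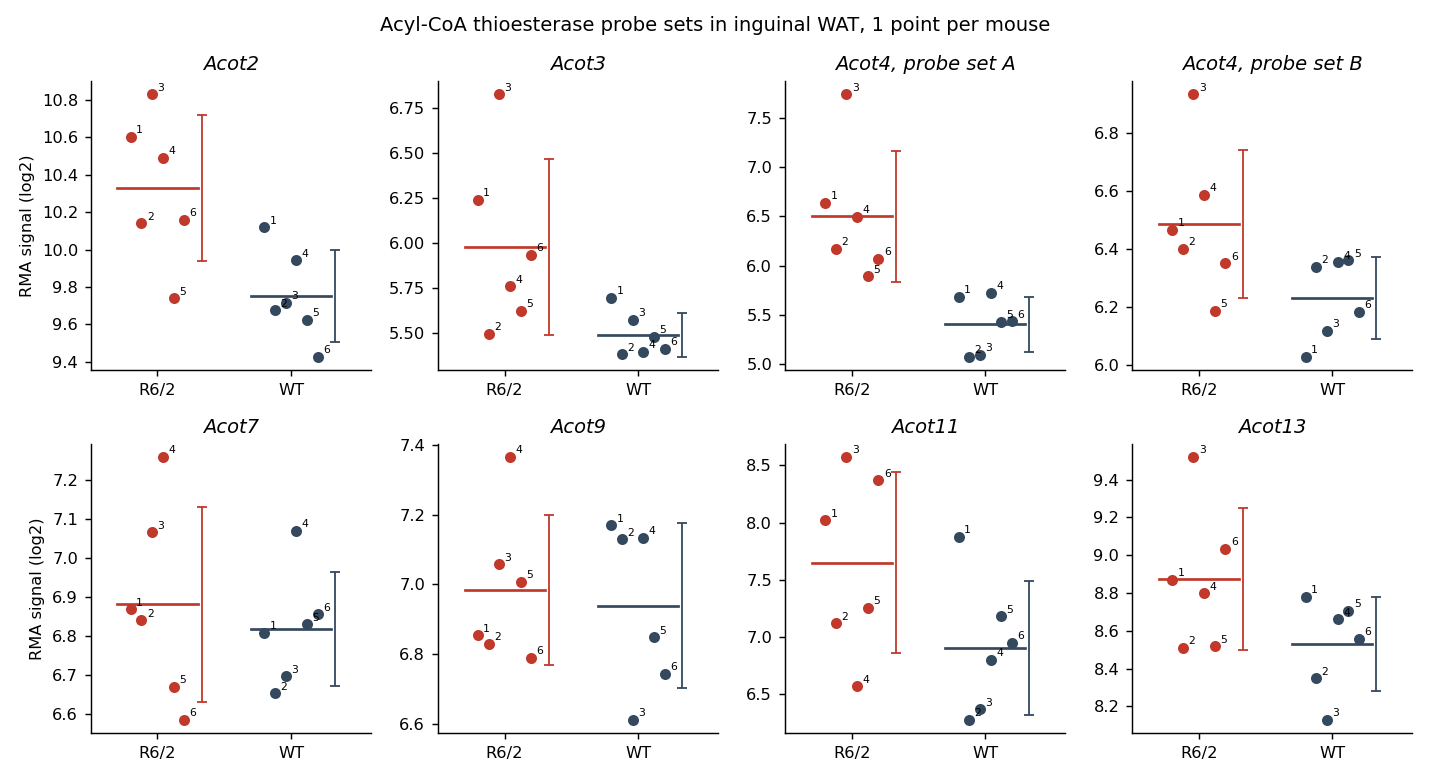
RMA signal (log2, vertical axes with their own range and not starting at 0) of each thioesterase probe set, 1 point per mouse with its number, R6/2 left and WT right, horizontal lines at the mean and bars of 1 SD (n = 6 each); probe sets A and B of *Acot4* are the first and second of the text. R6/2 mouse 3 is the highest of 12 mice for *Acot2*, *Acot3*, *Acot4*, *Acot11* and *Acot13*. Only *Acot4* probe set A separates the genotypes fully (5.89 to 7.74 against 5.07 to 5.73). That probe set passed the level limit only through R6/2 mice, and its WT signals lie close to background.

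The highest values came from few animals. Mouse 3 of the R6/2 group was the highest of all 12 mice for 5 of the 7 genes, and mouse 4 of that group for the other 2, *Acot7* and *Acot9*. Among WT mice, mouse 1 was highest for 5 genes and mouse 4 for 2. R6/2 mouse 3 also had the highest mean of 20 muscle genes (10.6) of all 12 mice. Its mean of 20 macrophage genes (6.88) was the lowest of the 12. WT mouse 1 had the lowest macrophage mean of its group (7.64) and a muscle mean of 9.02. R6/2 mice 3 and 4 and WT mouse 4 are the 3 pads low in lymphocyte genes. Without those 3 arrays, a choice made after seeing the data, the differences were 0.45 for *Acot2*, 0.31 for *Acot3*, 0.50 for *Acot4*, 0.76 for *Acot11* and 0.23 for *Acot13*, while those of *Acot7* and *Acot9* were both -0.03.

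A wider list of 16 other thioesterases and related hydrolases was split in direction. Of its 11 genes above the level limit, 5 were higher and 6 lower in R6/2 mice, with a median difference of -0.03. Over alternatives of the level filter, replicate block, marker covariates and mice only, the count higher at an unadjusted p below 0.05 lay between 0 and 2. In the reported fit 2 of the 11 were higher at that threshold (against 2.53% of all genes). One was *Acot1*, which passed the level limit only through R6/2 mice, and with both genotypes required above the limit the count was 1. The other was *Abhd17c*, which removes palmitate from proteins and averaged 8.16 ± 0.07 in R6/2 and 7.91 ± 0.13 in WT mice (SD, n = 6 each). *Acot10*, the close relative of *Acot9*, differed by -0.13 (SE 0.12). The lysosomal palmitoyl-protein thioesterases *Ppt1* and *Ppt2* differed by -0.03 and -0.08, and the cytosolic depalmitoylating enzymes *Lypla1* and *Lypla2* by 0.13 and 0.01. *Mblac2*, *Them4* and *Them6* differed by 0.15, -0.11 and -0.07. *Acot12*, *Baat*, *Olah* and *Them5* were below the limit with *Acot5*.

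**Figure D2:**
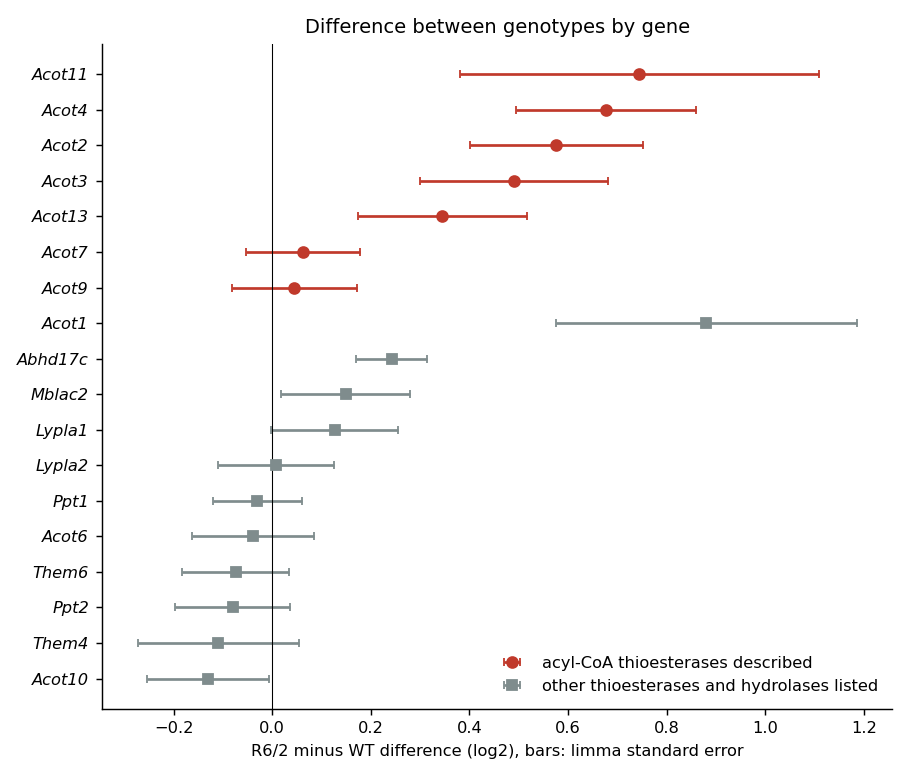
Difference R6/2 minus WT (log2, horizontal axis) for the 7 thioesterases (circles) and 11 other thioesterases and hydrolases (squares), with bars of 1 limma SE over 6 R6/2 and 6 WT mice. The 7 lie between 0.05 (*Acot9*) and 0.74 (*Acot11*), and of the others only *Acot1* lies above 0.3, drawn at its fitted value although no WT mouse exceeded the level limit, so that its position is not a measured size.

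Genes of the surrounding pathways were counted in the same fit, and none passed an adjusted p of 0.05. The counts that follow stand beside 54.2% of all genes with a higher mean in R6/2 mice and 2.53% higher at an unadjusted p below 0.05. Acyl-CoA synthetases, which make the thioesterases' substrates, had 9 of 14 genes above the limit higher in R6/2 mice (median 0.15), 3 of them at an unadjusted p below 0.05 and none lower. The 3 were *Slc27a2*, a very-long-chain acyl-CoA synthetase with a difference of 1.51 (SE 0.41), *Acsl5* (0.64, SE 0.23) and *Acsl4* (0.20, SE 0.09). In coenzyme A synthesis and breakdown, 10 of 13 genes were higher (median 0.12), and only *Pank1*, a kinase for the first step of coenzyme A synthesis, met the unadjusted threshold (0.94, SE 0.35). Mitochondrial beta-oxidation had 17 of 18 genes higher (median 0.25), with 3 at the unadjusted threshold, *Slc25a20* (0.67), *Hadha* (0.54) and *Etfdh* (0.50), which carry acylcarnitine into mitochondria, catalyse steps of the oxidation spiral and pass its electrons on. Peroxisomal oxidation had 16 of 19 genes higher (median 0.14) and 5 at that threshold. They included *Hacl1*, which shortens branched and hydroxylated acyl-CoA and in which all 6 R6/2 mice exceeded every WT mouse (8.69 ± 0.36 in R6/2, 8.04 ± 0.32 in WT mice, SD, n = 6 each), a pattern met by 0.199% of all genes. *Abcd3*, a peroxisomal acyl-CoA transporter, and *Ehhadh*, a peroxisomal oxidation enzyme, differed by 0.60 (SE 0.22) and 0.85 (SE 0.35).

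PPAR-alpha and its known targets had 16 of 21 genes higher in R6/2 mice, 5 lower and a median of 0.26, with 6 higher and none lower at an unadjusted p below 0.05 (higher being met by 2.53% of all genes). *Pdk4*, the kinase that shuts pyruvate dehydrogenase and a classical target, averaged 11.2 ± 0.43 in R6/2 and 10.2 ± 0.73 in WT mice (SD, n = 6 each). The receptor gene *Ppara* itself averaged 7.86 ± 0.50 in R6/2 and 7.27 ± 0.61 in WT mice. Thermogenic genes had 14 of 16 higher (median 0.37) and 4 at the unadjusted threshold, among them *Elovl3*, a fatty acid elongase of brown fat (2.33, SE 0.78), and *Ppargc1a*, a coactivator of mitochondrial genes (0.58, SE 0.24). The lists overlap in genes, and they were written with earlier results of these data known. For the lists, alternatives changed only the level filter, replicate block, marker covariates and mice. Probe set merging, normalization, variance model and array weights were not varied for them. Over the alternatives run, the count higher at the unadjusted threshold lay between 1 and 4 for the synthetases and 0 and 2 for coenzyme A synthesis. It lay between 0 and 6 for each of the oxidation lists, 0 and 7 for the PPAR-alpha list and 1 and 7 for the thermogenic list. Of 14 adipocyte markers 12 were lower (median -0.10), with *Lep*, the hormone leptin, the single one at the unadjusted threshold (-1.26, SE 0.35), lower being met by 3.31% of all genes.

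Whether the 7 genes vary with thermogenic state or with other cells in the pad was examined within genotypes, since differences between the genotypes had served to choose the genes. The measures were picked with earlier results of these data known. Each gene and each measure was centred on its genotype mean, and mice were permuted within their genotype in an exact two-sided permutation test. In all, 35 relations (7 genes, 5 measures) were computed and adjusted together by Benjamini-Hochberg. Pearson's r passed an adjusted p of 0.05 in 13 relations, Spearman's rho in 8, and both in 7.

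*Acot11* followed *Ucp1*, the uncoupling protein of brown and beige adipocytes, from mouse to mouse. *Ucp1* signals were 8.44, 11.91 and 12.61 in R6/2 mice (lowest, median, highest), against 8.70, 9.92 and 11.62 in WT mice. The R6/2 mouse with the lowest *Ucp1*, mouse 4, was also the one with the lowest *Acot11*, and the WT mouse with the highest *Ucp1*, mouse 1, had the highest *Acot11* of its group. Pearson's r was 0.909 (exact permutation p = 2.31e-05, adjusted 0.00081) and Spearman's rho was 0.944 (exact permutation p = 5.4e-05, adjusted 0.00189), over 12 mice. Leaving out the 2 mice whose uncentred *Ucp1* lay farthest from its median, R6/2 mouse 4 (8.44) and WT mouse 2 (8.70), gave 0.905. Within R6/2 and WT mice alone r was 0.876 and 0.971. Over all genes, 37 (0.254%) had a higher r with *Acot11* than *Ucp1* had, led by *Lrpprc* (0.973), a regulator of mitochondrial RNA. With *Ucp1* as a covariate, added after seeing the data, the genotype difference of *Acot11* was 0.06 (SE 0.19), against 0.74 without it. Those of *Acot3* and *Acot13* were 0.32 (SE 0.21) and 0.16 (SE 0.18). With *Ppara* as the covariate, also added later, the differences were 0.11 (SE 0.22) for *Acot11*, 0.23 (SE 0.17) for *Acot3* and 0.08 (SE 0.13) for *Acot13*. *Ucp1* averaged 11.47 in R6/2 and 9.97 in WT mice, and *Ppara* 7.86 and 7.27. Such fits therefore cannot separate either gene from genotype, and their part in the differences was not tested.

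For *Acot2* and *Acot4* the relation with *Ucp1* did not pass (r = 0.182 and 0.225; exact permutation p = 0.633 and 0.500), and dropping the same 2 mice, those with the most extreme *Ucp1*, gave 0.525 and 0.400. With *Ucp1* as a covariate their differences were 0.51 (SE 0.21) and 0.59 (SE 0.22), in a fit with the same limit. R6/2 mouse 4 had 10.49 for *Acot2*, the third highest of 12, and the lowest *Ucp1* of all. For *Acot13* the call depended on the measure and the mice, with r = 0.548 (adjusted exact permutation p = 0.206), rho = 0.769 (adjusted exact permutation p = 0.0285), and r = 0.766 without the same 2 mice (adjusted exact permutation p = 0.0134). *Acot3* reached r = 0.440 with an adjusted exact permutation p of 0.383. For *Acot7* and *Acot9* r was -0.330 and -0.292, neither passed, and both turned positive without the same 2 mice (0.169 and 0.579). Their r was also negative in R6/2 mice alone (-0.657 and -0.831) and positive in WT mice alone (0.433 and 0.365). That r is larger for *Acot11* than for *Acot2* was not tested as a difference.

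**Figure D3:**
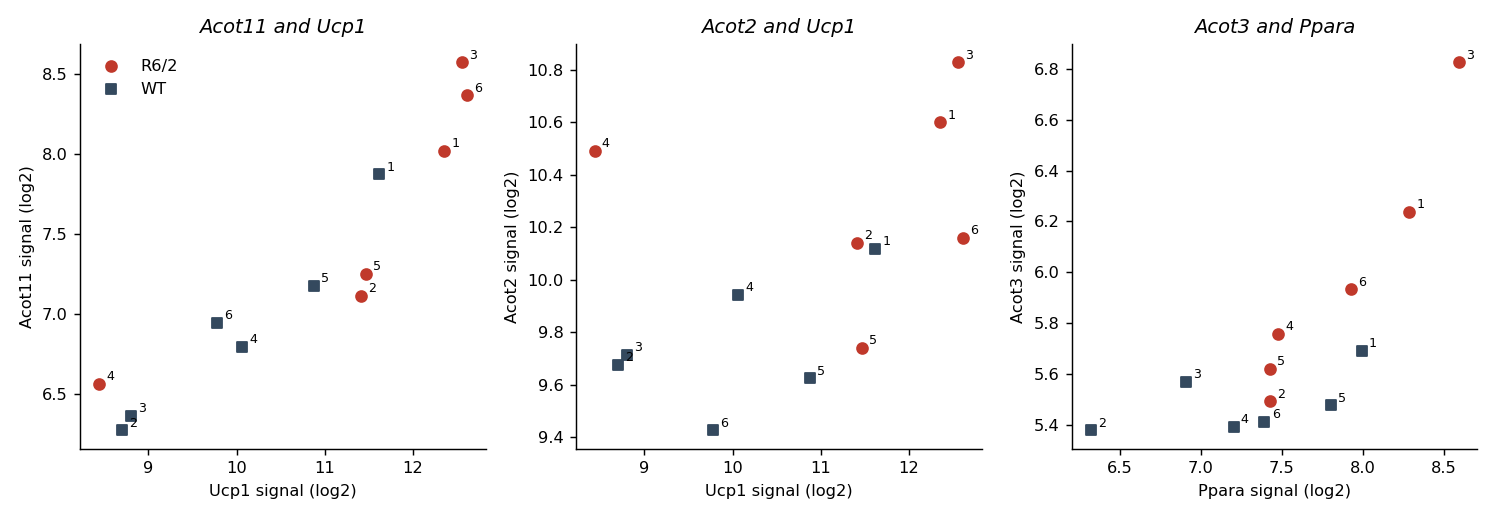
Signals of single mice (log2 on both axes), circles for R6/2 and squares for WT mice with the mouse number: *Acot11* against *Ucp1*, *Acot2* against *Ucp1*, and *Acot3* against *Ppara*. *Acot11* climbs with *Ucp1* in both genotypes (r = 0.909 after centring), *Acot2* has an r of 0.182 with it, and R6/2 mouse 4 combines the lowest *Ucp1* (8.44) with a high *Acot2* (10.49).

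*Ppara* was added as a measure after the data had been seen. *Acot11* (r = 0.866), *Acot13* (0.795) and *Acot3* (0.699) each reached an adjusted exact permutation p of 0.0109, and Spearman's rho (0.860, 0.839 and 0.846) passed for each at 0.0144, 0.0183 and 0.0144. *Acot4* passed by Pearson's r (0.594, adjusted exact permutation p = 0.0476) and not by rho (0.107 adjusted), and without R6/2 mouse 3 its r was 0.439. *Acot2*, *Acot7* and *Acot9* did not pass (r = 0.538, 0.229 and -0.067). *Acot2* and *Acot3* lie in the same cluster, and whether their r differ was not tested.

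**Figure D4:**
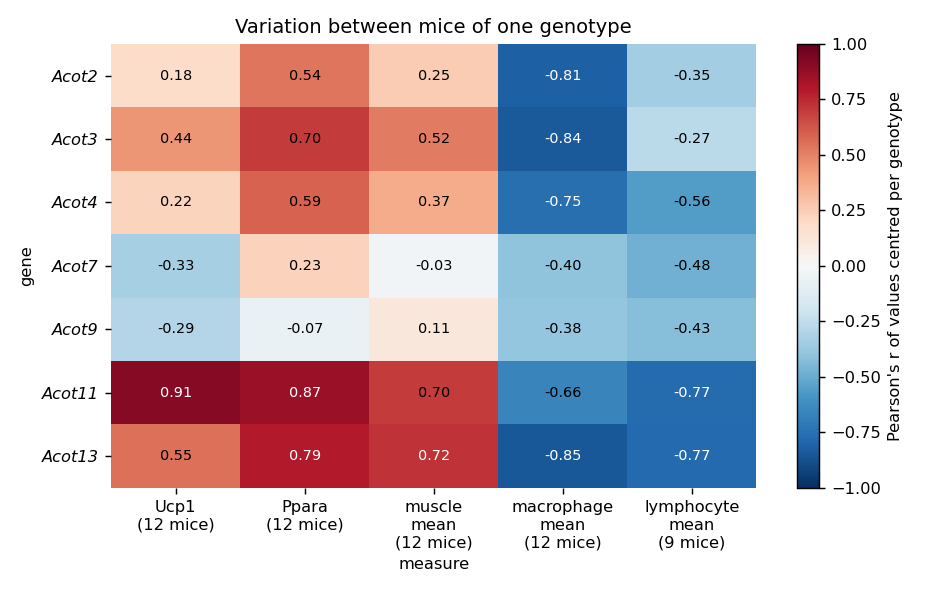
Pearson's r (colour and number, red above and blue below 0) of each thioesterase with 5 measures after centring each genotype, over 12 mice, or 9 for the lymphocyte mean. *Acot11* with *Ucp1* is the largest positive value (0.91), and the macrophage column is negative for all 7 genes (-0.38 to -0.85).

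Other cells in the pad moved with several of the genes. All 20 macrophage markers had a lower mean in R6/2 mice, against 6669 of all 14550 genes. Of the markers 5 were lower at an unadjusted p below 0.05 (against 3.31% of all genes). Their summary ranged from 6.88 to 8.29 in R6/2 mice and 7.64 to 8.56 in WT mice. The markers named here are those with the smallest limma p of the list. They were *Itgam* (6.86 ± 0.40 in R6/2, 7.67 ± 0.38 in WT mice) and *Cd68* (8.71 ± 0.49 in R6/2, 9.70 ± 0.68 in WT mice, SD, n = 6 each), both above the level limit. Within genotypes the macrophage mean ran against *Acot2* (r = -0.813, adjusted exact permutation p = 0.0229), *Acot3* (-0.842, 0.0109), *Acot13* (-0.848, 0.0109) and *Acot4* (-0.750, 0.0476), while *Acot11* (-0.661, 0.0775), *Acot7* and *Acot9* did not pass. Without the 2 mice farthest in the macrophage mean, *Acot11* passed (r = -0.885, adjusted exact permutation p = 0.0429). The same check gave r = -0.777 for *Acot3*. It took *Acot2* (-0.688), *Acot13* (-0.736) and *Acot4* (-0.385, unadjusted exact permutation p = 0.300) past the adjusted threshold, so that they no longer passed. By rho only *Acot2* and *Acot13* passed (-0.804 and -0.748, adjusted exact permutation p = 0.0285 and 0.0365), and without R6/2 mouse 3 the r of *Acot4* was -0.474. With the macrophage mean as a covariate the genotype differences were 0.23 (SE 0.14) for *Acot2*, 0.10 (SE 0.14) for *Acot3* and 0.34 (SE 0.16) for *Acot4*. Those of *Acot11* and *Acot13* were 0.14 (SE 0.35) and -0.01 (SE 0.13). The macrophage mean itself averaged 7.68 in R6/2 and 8.23 in WT mice, so such a fit cannot separate it from genotype. The part of macrophages in the genotype differences was not tested.

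Skeletal muscle markers were high in some pads. All 20 muscle markers had a higher mean in R6/2 mice, against 54.2% of all genes. None was higher at an unadjusted p below 0.05, against 2.53% of all genes. Their summary ranged from 6.01 to 10.6 in R6/2 mice and 6.02 to 10.3 in WT mice. Muscle also expresses thioesterases and oxidation genes. *Acot13* followed the muscle mean (r = 0.720, adjusted exact permutation p = 0.0351; rho = 0.783, adjusted 0.0285) and *Acot11* did so by r only (0.696, adjusted exact permutation p = 0.0476; rho adjusted 0.0863). WT mice fell apart in this measure, with mice 1 and 5 at 9.02 and 10.3 and the other 4 between 6.02 and 6.15, so that the WT relation (r = 0.647 for *Acot13*) rests on mice 1 and 5. With the muscle mean as a covariate the differences were 0.53 for *Acot2*, 0.38 for *Acot3*, 0.60 for *Acot4*, 0.46 for *Acot11* and 0.21 for *Acot13*. The part of muscle in the genotype differences was not tested. Over the 9 mice with higher lymphocyte genes, *Acot11* and *Acot13* ran against the lymphocyte mean by r (-0.771 and -0.773, adjusted exact permutation p = 0.0476 and 0.0351) and not by rho.

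**Figure D5:**
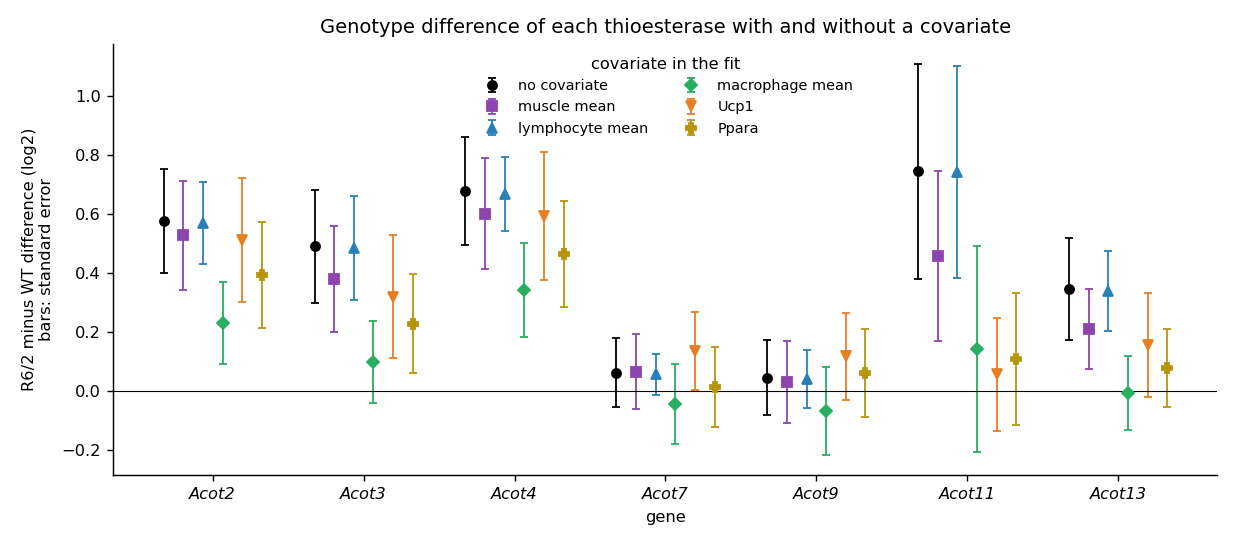
Genotype difference R6/2 minus WT (log2, vertical axis, bars of 1 SE, 6 R6/2 and 6 WT mice) of each thioesterase without a covariate and with each of 5 covariates. The macrophage mean gives the smallest values for *Acot2* (0.23), *Acot3* (0.10), *Acot4* (0.34) and *Acot13* (-0.01), and *Ucp1* the smallest for *Acot11* (0.06). The macrophage mean, *Ucp1* and *Ppara* differ between the genotypes themselves, so these fits cannot separate them from genotype.

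Among themselves, after centring, the genes of the chromosome 12 cluster varied together. The r over 12 mice was 0.802 for *Acot3* with *Acot4*, 0.779 for *Acot2* with *Acot4* and 0.736 for *Acot2* with *Acot3*, and *Acot1* reached 0.876 with *Acot3*, 0.824 with *Acot4* and 0.613 with *Acot2*. *Acot13*, on another chromosome, came as close to *Acot4* (0.820) and *Acot3* (0.775) and also to *Acot11* (0.784). *Acot11* was further from *Acot2* (0.421) and *Acot4* (0.445), and *Acot7* and *Acot9* had r of -0.149 with *Acot11* and 0.574 with each other. These values are descriptions. The pairs share arrays, the cluster genes may share probes, and R6/2 mouse 3 is the highest in 5 of the 7 genes.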

How the data were processed

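Inguinal WAT RNA of 6 R6/2 and 6 WT mice had been hybridised to Affymetrix Mouse Gene 2.0 ST arrays. The log2 values deposited by the authors, 1 per probe set and unfiltered, come from RMA normalization (Expression Console 1.1.2). Of 41345 probe sets, 23521 had 1 gene symbol in the platform annotation, 1820 several and 16004 none. Single-symbol probe sets above the level limit were kept and merged per gene by the median in each array (595 genes). RMA subtracts background and sets all arrays to one distribution, which compresses differences of dim probe sets.

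R6/2 and WT were compared with limma 3.58.1 (lmFit, eBayes, Benjamini-Hochberg over 14550 genes) in R 4.3.3, tested on simulated data. The SAM test of the methods was not run. Relations used Python 3.11.15 and scipy 1.17.1. The array number limits precision: 6 against 6 allow no exact p below 0.00216. Mice are separate animals.

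The 8 genes, gene lists and tests were chosen with earlier results of these data known. Named were the 8 genes, the measured genes of the other thioesterase list, up to 4 genes per list with the smallest p, *Ucp1*, *Ppara*, *Pdk4* and the 3 genes most like each thioesterase. Alternatives changed the filter, probe set merging, normalization, variance model, array weights, replicate block, covariates and mice. Correlations of same-numbered mice had both signs, which cannot decide whether the numbers pair mice, and the reported fit treats mice as unpaired.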

Additional observations from a re-analysis of the deposited data

Results flagged for a closer look

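A mouse stood apart from the other 5 of its genotype in 7 of 122 groups examined (the thioesterase probe sets, the named pathway genes and the marker means), by a gap above 0.625 of the group's range, and chance alone marks about 1 in 20. *Acot1* was high in R6/2 mouse 3 (7.42, next 5.99), the mouse with the highest *Acot2*, *Acot3* and *Acot4*. *Ucp1* was low in R6/2 mouse 4 (8.44, next 11.41). *Acot10* was low in R6/2 mouse 4 (6.66, next 6.83). *Lypla1* was low in WT mouse 3 (8.91, next 9.3). *Ppcdc*, an enzyme of coenzyme A synthesis, was high in WT mouse 3 (7.75, next 7.50). The adipocyte marker mean was low in WT mouse 3 (10.7, next 11.31). *Cd79a*, a B cell receptor subunit, was low in WT mouse 4 (6.24, next 10.14), one of the 3 pads low in lymphocyte genes.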

How the results depend on the processing

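The differences of *Acot2*, *Acot3*, *Acot4* and *Acot11* were above 0 in all 28 settings run (the reported one included), that of *Acot13* in 27, of *Acot7* in 24 and of *Acot9* in 23, and none of the 27 alternatives brought any of the 7 genes to an adjusted p below 0.05 (lowest 0.0613, *Acot4*). With the macrophage mean as a covariate the difference was 0.23 for *Acot2*, 0.10 for *Acot3* and -0.0083 for *Acot13*. With both genotype means required above the limit, or with the brightest probe set, that of *Acot4* was 0.26, because only its second probe set then remained. Leaving out 1 mouse at a time gave 0.48 to 0.69 for *Acot2*, 0.32 to 0.59 for *Acot3*, 0.51 to 0.77 for *Acot4*, 0.56 to 0.96 for *Acot11*, 0.22 to 0.42 for *Acot13*, -0.01 to 0.12 for *Acot7* and -0.03 to 0.09 for *Acot9*. The lowest values of *Acot3* (0.32) and *Acot13* (0.22) were those without R6/2 mouse 3. The unadjusted call of *Acot3* ended without R6/2 mouse 1. *Acot11* met that threshold without R6/2 mouse 2, R6/2 mouse 4 or WT mouse 1, and *Acot13* without R6/2 mouse 2 or 5.

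Over all genes, calls at an adjusted p below 0.05 were 6 higher and 40 lower with array weights, 2 and 16 with the lymphocyte mean as a covariate, and 1 and 8 without the 3 pads low in lymphocyte genes (chosen after seeing the data), against 0 and 0. Leaving out 1 mouse gave 0 to 1 higher and 0 to 22 lower, the most without R6/2 mouse 4. At an unadjusted p below 0.05, the counts were 1366 higher and 1413 lower with array weights, 984 and 777 with the macrophage mean, 880 and 971 with the lymphocyte mean, 559 and 931 without those 3 pads, and 281 to 549 and 298 to 922 on leaving out 1 mouse (with 922 lower when R6/2 mouse 4 was dropped, 298 for R6/2 mouse 6 and 316 for WT mouse 4). The cause of these shifts was not tested. With the replicate number as a block, 0 genes were higher and 2 lower at the adjusted threshold and 265 and 491 at the unadjusted one. Correlations of same-numbered mice ran from -0.78 to 0.78 and 1 of 6 numbers matched best with itself. These values cannot decide whether the mice were paired, since pads also differed in the markers of other cells.

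Of 210 relation values under alternatives, 17 had the opposite sign, all in relations that did not pass. With fewer mice the 7 relations that had passed by both r and rho kept their sign, and those given next missed the adjusted threshold. Within R6/2 and WT mice alone, r was 0.876 and 0.971 for *Acot11* with *Ucp1*, 0.964 and 0.567 for *Acot3* with *Ppara*, 0.863 and 0.926 for *Acot11* with *Ppara*, 0.876 and 0.780 for *Acot13* with *Ppara*, 0.817 and 0.647 for *Acot13* with muscle, -0.821 and -0.795 for *Acot2* with macrophage, and -0.951 and -0.619 for *Acot13* with macrophage markers. Without the 2 farthest mice, and without R6/2 mouse 3, r was 0.700 and 0.637 for *Acot3* with *Ppara*, 0.783 and 0.748 for *Acot13* with *Ppara*, 0.649 and 0.650 for *Acot13* with muscle, -0.688 and -0.724 for *Acot2* with macrophage, and -0.736 and -0.717 for *Acot13* with macrophage markers. The within-genotype values and those without mouse 3 were chosen after seeing the data. Signals of *Acot3*, *Acot4* and *Acot1* lie near the level limit in WT mice, where small differences cannot be read.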

Other observations

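The genes whose signals were most like each thioesterase over 12 mice, centred on the genotype means, are given as descriptions. For *Acot11* they were *Lrpprc* (r = 0.973), *Abcf2* (0.962) and *Letmd1* (0.958), and 49 of 14549 genes had an r of 0.9 or more with it. For *Acot13* they were *Mapt* (0.972), which encodes the microtubule protein tau, *Coq9* (0.972), needed for coenzyme Q synthesis in mitochondria, and *Mtres1* (0.971). *Acot3* was closest to *Pdk1* (0.936), a kinase of pyruvate dehydrogenase, then *Pgm3* and *2310069B03Rik*. *Acot2* was closest to *Hexim2* (0.926), *Caml* and *Gm15408*, and *Acot4* to *Snrnp35* (0.956), *Bad* and *Tex264*. *Acot7* was closest to *Golgb1* (0.970), *Tmem245* and *A830010M20Rik*, and *Acot9* to *Map2* (0.946), *Alkal2* and *Prr16*. No other thioesterase stood among the 3 closest genes of any of the 7. With 12 mice and 14549 genes compared, values of this size occur among many genes.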
